A study of Mus musculus with 42 samples.

Results

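The xenobiotic receptors CAR (gene Nr1i3) and PXR (Nr1i2), 5 cytochrome P450 genes of the Cyp2a and Cyp2b subfamilies, and Por, the gene of cytochrome P450 oxidoreductase, were followed in liver. These 8 genes were taken by name, from the symbols of the 54446 Ensembl genes in the count table, and all 8 were detected well enough to be tested among the 15574 genes that passed the filter on low counts. RNA sequencing of whole liver was available for 42 female mice, each carrying the human APOE*3-Leiden transgene, which gives a mouse hyperlipidaemia on a fatty diet; no group without the transgene was measured. The 10 chow mice received a maintenance diet throughout. The 16 WTD mice began, at 8 to 14 weeks of age, a Western-type diet with 15% cocoa butter, 40.5% sucrose and 1% cholesterol by weight. After 3 weeks of run-in they were followed to week 32, with 0.05% sodium cholate added to the diet from week 22. The 16 WTD+atorvastatin mice had the same diet and the same run-in without drug. From the end of the run-in, 3.0 mg/kg/day of the HMG-CoA reductase inhibitor atorvastatin was mixed in, raised to 4.5 mg/kg/day at week 5. The effects of cholate, of the fat and of the cholesterol cannot be told apart, since no group received them separately, and the labels give no age for the chow mice. Mouse numbers in the labels begin with AZ for every chow mouse and with Gen for every mouse of the other groups. What these series stand for is not given, so series and diet cannot be told apart.

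CAR and PXR are nuclear receptors of the hepatocyte that respond to drugs, bile acids and other small molecules. Both bind DNA together with the retinoid X receptor and raise the transcription of genes for drug oxidation, conjugation and transport. CAR is the main regulator of Cyp2b10, the classical phenobarbital-inducible P450 of mouse liver, whereas Cyp2b9, Cyp2b13 and Cyp2a4 are known as P450 genes with higher expression in female than in male mouse liver. Cyp2a5 encodes the coumarin 7-hydroxylase and Cyp2a4 the closely related testosterone 15-alpha-hydroxylase. All microsomal P450 enzymes receive their electrons from the reductase that Por encodes.

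The 5 P450 genes lie on chromosome 7 on the plus strand (GRCm38), in the order Cyp2b10 (chr7:25897620-25926624), Cyp2b13 (chr7:26061497-26096197), Cyp2b9 (chr7:26173411-26210661), Cyp2a4 (chr7:26307169-26315088) and Cyp2a5 (chr7:26835305-26843548). Nr1i3 (chr1:171213970-171220701, plus strand), Nr1i2 (chr16:38248323-38294824, minus strand) and Por (chr5:135670033-135735326, plus strand) lie elsewhere. The 250 bases before the RefSeq start (GRCm38.p6) of the P450 genes are shown because genes with nearly the same upstream sequence are compared below. In the first pair, capitals mark the bases that differ between Cyp2b9 (chr7:26173159-26173408) and Cyp2b13 (chr7:26061245-26061494).
Cyp2b9: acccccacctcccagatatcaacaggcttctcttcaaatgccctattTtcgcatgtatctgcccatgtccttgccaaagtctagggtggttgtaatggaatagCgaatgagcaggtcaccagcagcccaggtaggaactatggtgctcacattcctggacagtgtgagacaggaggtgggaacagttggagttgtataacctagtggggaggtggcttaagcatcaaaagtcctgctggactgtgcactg
Cyp2b13: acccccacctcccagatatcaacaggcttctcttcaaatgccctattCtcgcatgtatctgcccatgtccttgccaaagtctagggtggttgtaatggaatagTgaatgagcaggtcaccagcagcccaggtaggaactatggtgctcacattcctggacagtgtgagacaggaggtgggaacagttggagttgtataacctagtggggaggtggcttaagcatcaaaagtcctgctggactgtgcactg
These stretches were 99.2% identical, with 2 differences in 250 bases. The corresponding stretch of Cyp2b10 (chr7:25897408-25897657) was 78.2% identical to that of Cyp2b9 over 238 aligned bases, and capitals mark its 52 differing bases, with gaps unmarked.
Cyp2b10: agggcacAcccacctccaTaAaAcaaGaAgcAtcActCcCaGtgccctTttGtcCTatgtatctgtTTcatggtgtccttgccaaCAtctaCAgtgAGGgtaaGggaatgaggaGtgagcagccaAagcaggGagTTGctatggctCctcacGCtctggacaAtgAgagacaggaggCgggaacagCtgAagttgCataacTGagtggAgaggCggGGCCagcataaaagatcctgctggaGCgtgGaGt
The next 2 sequences belong to Cyp2a4 (chr7:26306942-26307191) and Cyp2a5 (chr7:26835089-26835338), with capitals for the 4 differences in 249 aligned bases, an identity of 98.4%.
Cyp2a4: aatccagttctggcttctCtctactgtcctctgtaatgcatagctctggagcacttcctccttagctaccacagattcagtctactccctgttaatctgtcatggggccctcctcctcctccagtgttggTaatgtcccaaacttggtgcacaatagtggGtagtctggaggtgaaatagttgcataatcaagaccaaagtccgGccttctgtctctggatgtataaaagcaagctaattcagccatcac
Cyp2a5: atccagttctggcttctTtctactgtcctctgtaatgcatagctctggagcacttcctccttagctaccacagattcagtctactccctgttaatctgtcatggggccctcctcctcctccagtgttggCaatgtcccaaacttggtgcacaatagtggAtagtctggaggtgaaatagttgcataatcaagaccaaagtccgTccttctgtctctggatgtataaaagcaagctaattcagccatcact

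A set of 6 short motifs, chosen after these sequences had been read, was searched on both strands of the 250 bases before each of 32851 RefSeq starts. The nuclear receptor half-site AGGTCA occurred once in Cyp2b9 and once in Cyp2b13, beginning 138 bases before the start, and in 14.0% of all promoters. CAAAGTCC, the core of the HNF4 element, was found 55 bases before the start of Cyp2a4 and 56 before that of Cyp2a5, and in 393 of the 32851 promoters. TTGCATAA, a sequence of the kind that C/EBP and related leucine zipper factors bind, lay 58, 70 and 71 bases before the starts of Cyp2b10, Cyp2a4 and Cyp2a5, against 0.694% of promoters. The matches in Cyp2a4 and Cyp2a5 did not overlap each other. The E-box CACGTG was in the promoter of Nr1i3 (6.02% of promoters). AGTTCA (11.8%) and TTATGTAA (0.819%) were not in any of the 8 windows. The phenobarbital-responsive enhancer of Cyp2b10 lies further upstream and was not covered. A match of letters is a description of the window and not a binding site.

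The near-identity of these genes also limits their counts. The Cyp2a4 and Cyp2a5 transcripts were 98.3% identical over 1738 aligned bases, the Cyp2b9 and Cyp2b13 transcripts 91.9% and the Cyp2b10 and Cyp2b9 transcripts 88.2%. Of all 150-base windows, the length of 1 read, 4.22% of those in Cyp2a4 and 5.79% of those in Cyp2a5 also occurred in a transcript of another gene, which for Cyp2a4 was Cyp2a5. The share was 5.04% for Cyp2b13, through a pseudogene (Gm45225), and 0 for Cyp2b9, Cyp2b10, Nr1i3, Nr1i2 and Por. Nr1i3 overlaps Tomm40l on the opposite strand over 4691 bases and Cyp2a4 overlaps an antisense gene over 118 bases. The libraries kept strand, but the strand setting of the counting was not given in the sources used here, so the split of reads between these overlapping genes is uncertain.

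Counts on genes ran from 15661381 to 36224054 per mouse. In 9 libraries (3 chow, 5 WTD and 1 WTD+atorvastatin), over 20% of the genes at 1 to 2 CPM (counts scaled to the same library total) in their group had no count at all, so that low genes are less reliable there. Markers of hepatocytes, the main source of P450 transcripts in liver, moved with the diet. All 5 that were tested, genes of secreted plasma proteins such as albumin (Alb) and transthyretin (Ttr), were lower on WTD than on chow (median log2 fold change -0.90), and 2 of 5 were higher with atorvastatin than on WTD (median 0.25). With the drug 3 of 5 were higher without the 9 libraries, and 4 of 5 by limma-voom. The summed level of the 5 markers ran from 110653 to 162725 CPM on chow, from 54270 to 105276 CPM on WTD and from 62070 to 128724 CPM with atorvastatin. In whole liver, fewer hepatocytes and less RNA of these genes per hepatocyte cannot be told apart. Whether the markers are themselves regulated on the diet was not tested, so a value relative to them is not a level per hepatocyte. One WTD mouse (replicate 15) stood apart from the other 15, with 483 CPM of Nr1i3, 440 CPM of Cyp2b9, 529 CPM of Cyp2b13 and 633 CPM of Por. Calls that changed when it was left out are given with and without it. This mouse was also among the 9 libraries low in weak genes, with 21.9% of such genes at no count.

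In chow mice the levels per kilobase of exon fell into steps. Cyp2a5 (median 356 CPM per kb), Cyp2b9 (323), Cyp2a4 (322) and Cyp2b13 (256) came first, and their ranges overlapped. Nr1i3 (125) and Por (112) followed with overlapping ranges, below every value of Cyp2b13. Nr1i2 (45.9) was lower than Por in 10 of 10 mice, and Cyp2b10 (10.7) was the lowest gene in 10 of 10 mice. On WTD the order was Cyp2a5 (391), Cyp2a4 (211), Cyp2b9 (83.6), Por (70.9), Cyp2b13 (67.3), Nr1i3 (41.6), Nr1i2 (33.2) and Cyp2b10 (0.303 CPM per kb). Only the last step had ranges that did not overlap, although Cyp2a5 exceeded Cyp2a4 in 16 of 16 mice. With atorvastatin the order was Cyp2a5 (461), Cyp2a4 (365), Cyp2b9 (184), Cyp2b13 (123), Por (85.3), Nr1i3 (59.3), Nr1i2 (37.1) and Cyp2b10 (1.19 CPM per kb), and again the last step alone was free of overlap. The exon length of Nr1i3 (4414 bases) and of Por (4021) includes long alternative exons. With the longest coding transcript instead, Por moved to the third place on WTD (108 CPM per kb) and to the fourth with atorvastatin (130), and the order on chow did not change.

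Feeding WTD was compared with chow to show what the diet did to the receptors and their targets. Of the 8 genes, 6 were lower on WTD and none was higher at an adjusted p under 0.01 (edgeR quasi-likelihood test, adjusted over all 15574 genes), where 33.5% of all tested genes passed, 16% lower and 17.5% higher. The 8 genes were chosen with earlier results of these data known. Counts of them beside such shares are therefore a description and no test of the set. Nr1i3 ranged from 394 to 668 CPM on chow (median 552) and from 131 to 483 CPM on WTD (median 184). Replicate 15 held the 483 CPM, and the other 15 WTD mice, at 131 to 253 CPM, lay below every chow mouse. The fold change was 2.75-fold lower, with a log2 fold change of -1.46 (SE 0.18, adjusted p = 1.32e-08), and -1.60 without replicate 15. Nr1i2 changed less, from 83.9 to 164 CPM on chow (median 117) to 67.1 to 110 CPM on WTD (median 84.8). Its groups overlapped, with 7 of 16 WTD mice below the lowest chow mouse, and the log2 fold change was -0.44 (SE 0.08, adjusted p = 4.23e-06).

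Since hepatocyte markers fell too, each gene was also expressed relative to the mean log2 level of the 5 markers in the same mouse, a measure added after the data were seen. On this scale Nr1i3 was still lower on WTD (difference in log2 of -0.65, permutation test, adjusted p = 0.00086 over 24 tests), whereas Nr1i2 was higher (0.45, adjusted p = 0.0013). The direction for Nr1i2 thus turned with the reference.

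**Figure D1:**
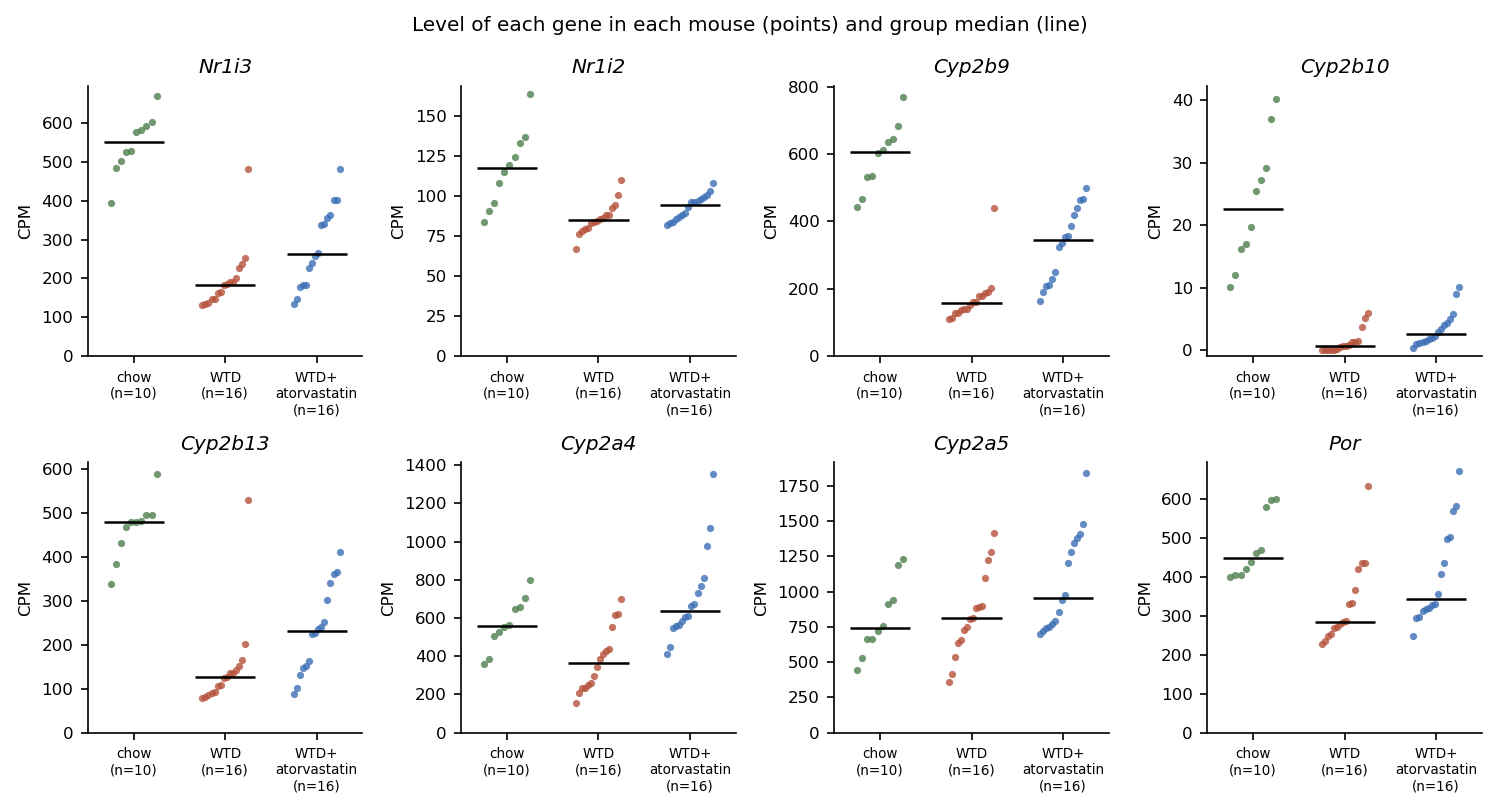
Level of each gene in CPM (linear axes, one point per mouse, line at the group median) in the 10 chow, 16 WTD and 16 WTD+atorvastatin mice. WTD mice lay below chow for Nr1i3, Cyp2b9, Cyp2b10 and Cyp2b13 apart from 1 WTD mouse at 483 CPM of Nr1i3 and 529 CPM of Cyp2b13, while Cyp2a5 overlapped between all groups.

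The 3 Cyp2b genes all fell on WTD. Cyp2b9 ranged from 444 to 769 CPM on chow (median 607) and from 110 to 440 CPM on WTD (median 157). All 16 WTD mice lay below the lowest chow mouse, and the gene was 3.44-fold lower (log2 fold change -1.78, SE 0.18, adjusted p = 5.27e-11). Cyp2b13 ranged from 339 to 590 CPM on chow (median 479) and from 79.8 to 529 CPM on WTD (median 126). Leaving aside replicate 15, the highest WTD mouse had 201 CPM, and with all mice the gene was 3.14-fold lower (log2 fold change -1.65, SE 0.25, adjusted p = 5.79e-07), or -1.92 without replicate 15. Relative to the hepatocyte markers, the differences were smaller for Cyp2b9 (-0.97, permutation test, adjusted p = 0.00012) and Cyp2b13 (-0.94, adjusted p = 0.00058), and both still passed 0.01.

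Cyp2b10, the CAR target with the lowest level, had the largest change of the 8 genes. It ranged from 10.1 to 40.3 CPM on chow (median 22.6) and from 0 to 5.96 CPM on WTD (median 0.640). The ranges did not overlap, and 5 of 16 WTD mice had 0 counts (replicates 2, 8, 9, 11 and 16), a result that allows up to 0.122 to 0.192 CPM in these libraries when 3 counts are taken as the limit for counting error. Of these 5 mice, 3 (replicates 8, 9 and 16) were among the libraries in which low genes often had no count. The fitted log2 fold change was -4.11 (SE 0.62, adjusted p = 6.05e-07), a 17.3-fold decrease, -4.47 without the 9 libraries low in weak genes and -5.32 with limma-voom. Relative to Cyp2b9 in the same mouse, the log2 level of Cyp2b10 was -4.77 ± 0.72 on chow (SD, n = 10) and -8.10 ± 1.90 on WTD (SD, n = 16). This difference of -3.34 was significant (permutation test, two-sided, adjusted p = 0.00015 over 12 tests), so Cyp2b10 fell further than Cyp2b9. The size of this ratio depends on the count added before taking logs (-4.03 with 0.5 in place of 2), since some mice had no count.

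The Cyp2a genes behaved differently. Cyp2a4 ranged from 359 to 798 CPM on chow (median 560) and from 155 to 700 CPM on WTD (median 366). The groups overlapped, although 8 of 16 WTD mice lay below every chow mouse, and its log2 fold change of -0.57 (SE 0.20) did not pass the threshold (adjusted p = 0.0192). It did pass with limma-voom (-0.91), without the libraries low in weak genes (-0.88), and without WTD replicate 8 (-0.63), 9 (-0.65) or 15 (-0.63). Cyp2a5 ranged from 445 to 1229 CPM on chow (median 738) and from 361 to 1416 CPM on WTD (median 810). Its log2 fold change was 0.06 (SE 0.19, adjusted p = 0.842). A clock score, the mean standardised level of Dbp, Tef, Nr1d2, Per2 and Per3 minus that of Arntl, Npas2 and Clock, differed between groups, with medians of -1.99 on chow, -0.54 on WTD and 0.41 with atorvastatin. When this score was in the model, Cyp2a4 passed at -0.92 and the estimate for Cyp2a5 was -0.25 (edgeR, adjusted p = 0.231). The times of day at which the livers were taken were not given in the sources used here, and the part of the clock in these levels was not tested further. Relative to the hepatocyte markers, Cyp2a4 did not differ between WTD and chow beyond the spread (0.22, permutation test, adjusted p = 0.288) and Cyp2a5 was higher on WTD (0.91, adjusted p = 0.0013).

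Por, which supplies all these enzymes with electrons, ranged from 399 to 601 CPM on chow (median 449) and from 228 to 633 CPM on WTD (median 285). Of the WTD mice, 12 of 16 lay below every chow mouse and replicate 15 above every one. The log2 fold change was -0.53 (SE 0.15, adjusted p = 0.0038), and the call was lost without chow replicate 9 (-0.48, adjusted p = 0.0101), while with the clock score the value was -0.86. Without WTD replicate 15 it was -0.62. Against the hepatocyte markers the difference for Por was 0.32 and did not pass 0.01 (permutation test, adjusted p = 0.046).

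Atorvastatin was compared with WTD alone to show whether the drug changed the levels reached on the diet. Of the 8 genes, 2 were higher and none was lower, where 7.10% of all tested genes passed, 4.84% higher and 2.26% lower. Cyp2b9 ranged from 163 to 499 CPM with atorvastatin (median 345), above the WTD median in 16 of 16 mice, with a log2 fold change of 0.94 (SE 0.16, adjusted p = 9.12e-05). Cyp2a4 ranged from 414 to 1353 CPM (median 635), above the WTD median in 16 of 16 mice and above the highest WTD mouse in 6, with a log2 fold change of 0.89 (SE 0.18, adjusted p = 0.000624). Both genes overlapped with the WTD group. Relative to the hepatocyte markers, both differences were 0.65 and passed 0.01 (permutation test, adjusted p = 0.00018 for Cyp2b9 and 0.0057 for Cyp2a4).

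For the other 6 genes the drug effect did not pass the threshold in this fit. Nr1i3 ranged from 135 to 481 CPM (median 262), with a log2 fold change of 0.50 (SE 0.17, adjusted p = 0.0362). Cyp2b13 ranged from 87.1 to 411 CPM (median 231), with a log2 fold change of 0.66 (SE 0.22, adjusted p = 0.0421). Without the 1 WTD mouse that stood apart, both passed, Nr1i3 at 0.65 (adjusted p = 0.000906) and Cyp2b13 at 0.93 (adjusted p = 0.000142). With another scaling of the libraries (RLE) they were at 0.46 and 0.63, past neither 0.01 nor 0.05 (edgeR, adjusted p = 0.0536 and 0.052). Over the 11 alternative fits the values ran from 0.38 to 0.77 for Nr1i3 and from 0.56 to 0.96 for Cyp2b13. Cyp2b10 was detected in 16 of 16 atorvastatin-treated mice, at 0.259 to 10.2 CPM (median 2.52), and 15 of 16 lay above the WTD median. Its log2 fold change was 1.35 with a wide error (SE 0.55, adjusted p = 0.106), and 1.72 without WTD replicate 15 (edgeR, adjusted p = 0.0241). Nr1i2 (0.11, SE 0.07), Cyp2a5 (0.36, SE 0.17) and Por (0.29, SE 0.13) had adjusted p values of 0.33, 0.181 and 0.171. The number of genes that passed was 6 in 2 other fits, with limma-voom and without the 9 libraries low in weak genes, both of which added Nr1i3, Cyp2b10, Cyp2b13 and Por. The 9 libraries include WTD replicate 15, so leaving them out is not separate from leaving out that mouse. For Por the 11 alternative fits ran from 0.15 to 0.50, and the value without WTD replicate 15 was 0.38 (edgeR, adjusted p = 0.0281). On the scale of the hepatocyte markers none of the 6 genes that missed the threshold in the main fit passed 0.01. The differences there were 1.84 for Cyp2b10 (permutation test, adjusted p = 0.0114), 0.42 for Cyp2b13 (adjusted p = 0.0614), 0.19 for Nr1i3 (adjusted p = 0.17), 0.09 for Cyp2a5 (adjusted p = 0.702), -0.18 for Nr1i2 (adjusted p = 0.0614) and -0.01 for Por (adjusted p = 0.91).

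**Figure D2:**
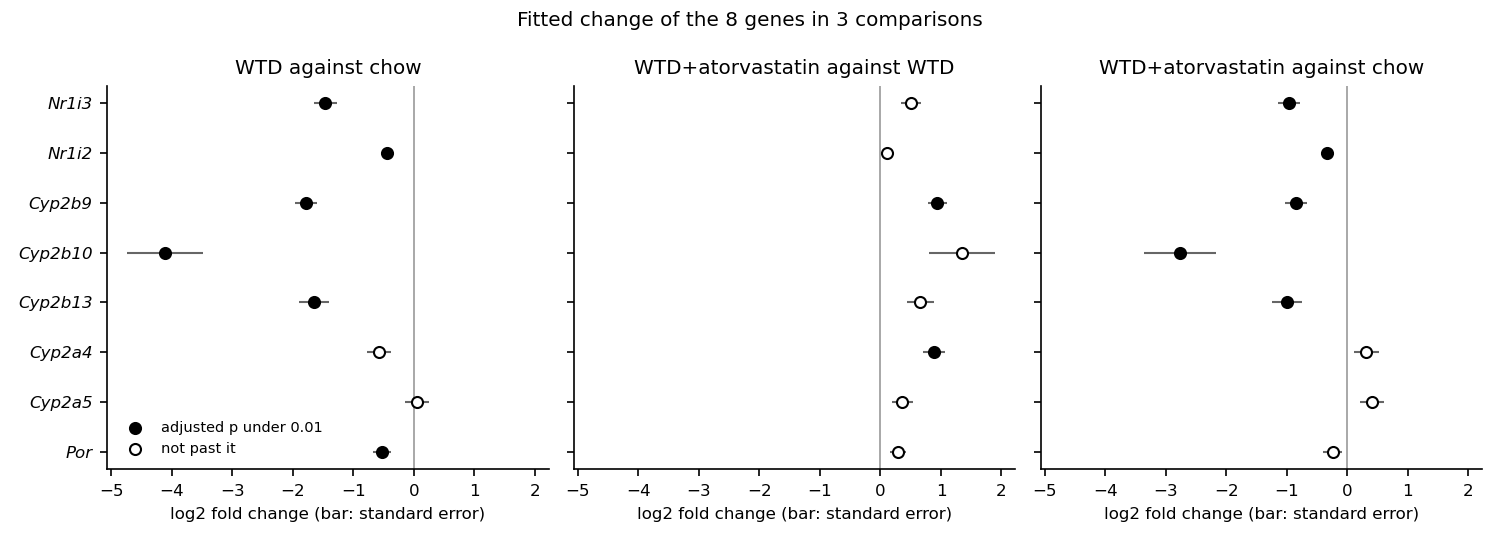
Log2 fold change of each gene in the 3 comparisons (horizontal axis; bars are standard errors; filled points have an adjusted p under 0.01). On WTD 6 of the 8 genes were lower than on chow, Cyp2b10 the most at -4.11; with atorvastatin Cyp2b9 and Cyp2a4 were higher than on WTD at 0.94 and 0.89.

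Atorvastatin-treated mice were then set against chow to show which genes still differed from mice on the maintenance diet. Of the 8 genes, 5 were lower and none was higher, where 25% of all tested genes passed, 10.7% lower and 14.2% higher. This comparison shares its mice with both others and is no independent evidence. Cyp2b10 remained the most reduced (-2.77, SE 0.59, adjusted p = 0.000259), with 15 of 16 mice below every chow mouse. Nr1i3 (-0.96, SE 0.18, adjusted p = 5.96e-05), Cyp2b13 (-0.99, SE 0.25, adjusted p = 0.00159) and Cyp2b9 (-0.84, SE 0.18, adjusted p = 0.000241) were lower by close amounts, and Nr1i2 was lower by less (-0.33, SE 0.08, adjusted p = 0.000606). Por (-0.24, SE 0.15) had an adjusted p of 0.229 and passed when the clock score was in the model (-0.71). Cyp2a5 was at 698 to 1840 CPM (median 956), with a log2 fold change of 0.42 (SE 0.20, adjusted p = 0.10). The value for Cyp2a4 was 0.32 (SE 0.21, adjusted p = 0.246), and it turned to -0.10 with the clock score. Relative to the hepatocyte markers the differences from chow shrank for Nr1i3 (-0.46), Cyp2b9 (-0.32) and Cyp2b13 (-0.53) and no longer passed 0.01 (permutation test, adjusted p = 0.0114, 0.0168 and 0.0168). Cyp2b10 still passed at -2.47 (adjusted p = 0.00012). On the same scale Cyp2a4 (0.87, adjusted p = 0.00086) and Cyp2a5 (1.00, adjusted p = 0.0015) were higher than on chow, while Nr1i2 (0.28) and Por (0.30) had positive differences that did not pass 0.01 (adjusted p = 0.0636 and 0.0658).

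A ratio between 2 genes in the same library cancels the scaling of the library. The Cyp2a5 to Cyp2a4 ratio, on the log2 scale of CPM, averaged 0.47 ± 0.67 (SD, n = 10) in chow mice and 1.16 ± 0.30 (SD, n = 16) in WTD mice. Atorvastatin-treated mice averaged 0.59 ± 0.38 (SD, n = 16). It was 0.69 higher on WTD than on chow (two-sided permutation test, adjusted p = 0.0026 over 12 tests) and above the chow median in 16 of 16 mice. With atorvastatin it was lower than on WTD by a difference of -0.57 (adjusted p = 0.00015, permutation test), below the WTD median in 16 of 16 mice, and did not differ from chow beyond the spread (0.13, adjusted p = 0.585). The 2 genes with the 98.4% identical upstream stretch thus changed by different amounts. The chow mice split widely, with 5 mice at -0.32 to 0.04 and 5 at 0.73 to 1.77. The lower 5 had clock scores of -2.37 to -1.92. Of the higher 5, replicates 4, 5, 9 and 10 had scores of -0.42 to 0.49, and replicate 2 had -2.78. Group medians of the score were -1.99 on chow, -0.54 on WTD and 0.41 with atorvastatin, whereas the ratio was highest on WTD. The ratio tests held no clock term, and the part of the clock in this ratio was not tested.

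The Cyp2b13 to Cyp2b9 ratio showed no such shift. Its mean was -0.34 ± 0.30 (SD, n = 10) in chow mice and -0.32 ± 0.31 (SD, n = 16) in WTD mice. In atorvastatin-treated mice it was -0.55 ± 0.48 (SD, n = 16). The 3 comparisons gave differences of 0.02, -0.23 and -0.21 that did not pass the test (permutation test, adjusted p = 0.852, 0.155 and 0.283). The lowest Cyp2b13 levels with atorvastatin came from 2 mice, at 87.1 and 102 CPM (replicates 7 and 13), beside Cyp2b9 at 228 and 355 CPM. Per kilobase of exon, Cyp2b9 made up a median of 54.3%, 56.9% and 56.5% of the summed Cyp2b9, Cyp2b10 and Cyp2b13 level on chow, WTD and WTD+atorvastatin, Cyp2b13 made up 43.6%, 43.0% and 42.7%, and Cyp2b10 made up 1.68%, 0.219% and 0.369%. The sum of the 3 had medians of 572, 157 and 300.3 CPM per kb. The Nr1i2 to Nr1i3 ratio rose from -2.23 ± 0.20 on chow (SD, n = 10) to -1.13 ± 0.42 on WTD (SD, n = 16). This rise of 1.10 (permutation test, adjusted p = 6.0e-05) shows that Nr1i3 fell further than Nr1i2. With atorvastatin the ratio was -1.50 ± 0.52 (SD, n = 16), which was 0.73 above chow (permutation test, adjusted p = 0.00098) and did not pass against WTD (-0.37, adjusted p = 0.0593).

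**Figure D3:**
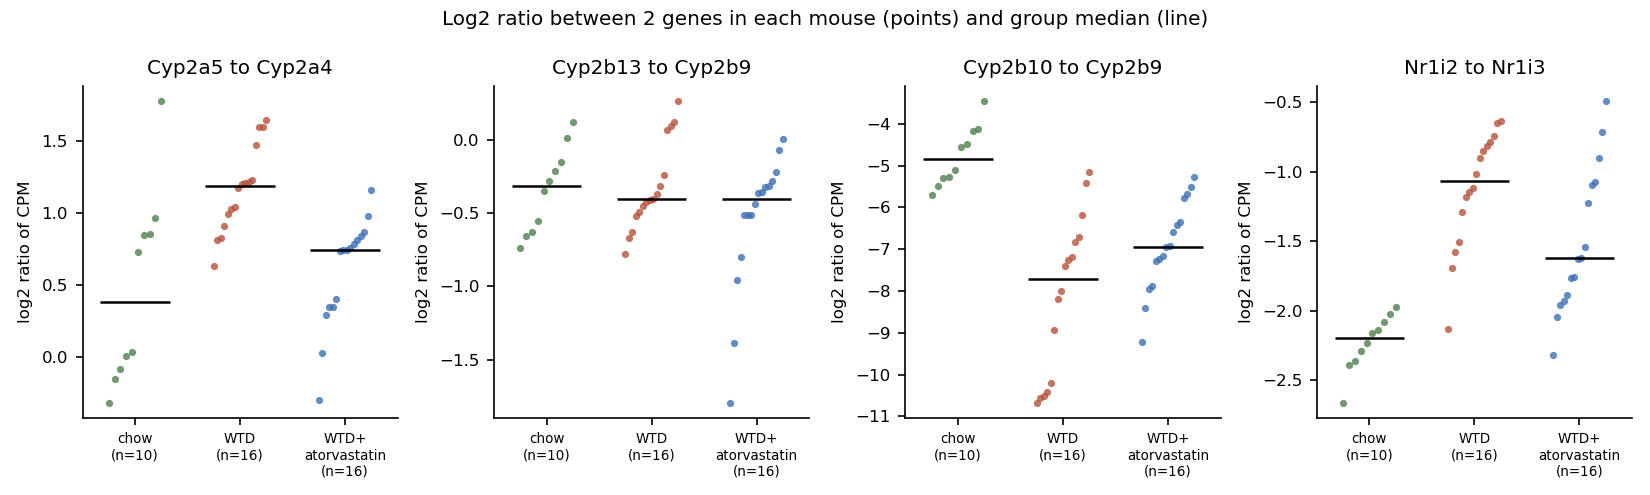
Log2 ratio of CPM between 2 genes in each mouse (vertical axis, one point per mouse, line at the median) in the 3 groups. The Cyp2a5 to Cyp2a4 ratio was highest on WTD with a mean of 1.16, and the Cyp2b13 to Cyp2b9 ratio had means between -0.55 and -0.32.

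Other Cyp2 genes lie among the P450 genes on chromosome 7. Of 8 further genes between Cyp2s1 and Cyp2t4, 5 were tested, and Cyp2b19, Cyp2b23 and Cyp2t4 had too few counts. On WTD 3 of 5 were lower than on chow and none higher (median log2 fold change -1.23, against 0.03 over all tested genes). With atorvastatin 2 of 5 were higher than on WTD and none lower (median 0.70). Cyp2f2, a P450 of periportal hepatocytes at the far end of the cluster, had the largest changes of these, at -2.58 on WTD (SE 0.26, adjusted p = 5.1e-11) and 1.62 with atorvastatin (SE 0.23, adjusted p = 1.8e-05). Against chow it was still lower with the drug (-0.97, SE 0.25, adjusted p = 0.0024), as were 3 of 5. Neighbours differed along the cluster, since Cyp2a5 (0.06) on WTD lay between Cyp2g1 (-1.23, adjusted p = 0.0132) and Cyp2a22 (-1.60, adjusted p = 1.3e-06).

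**Figure D4:**
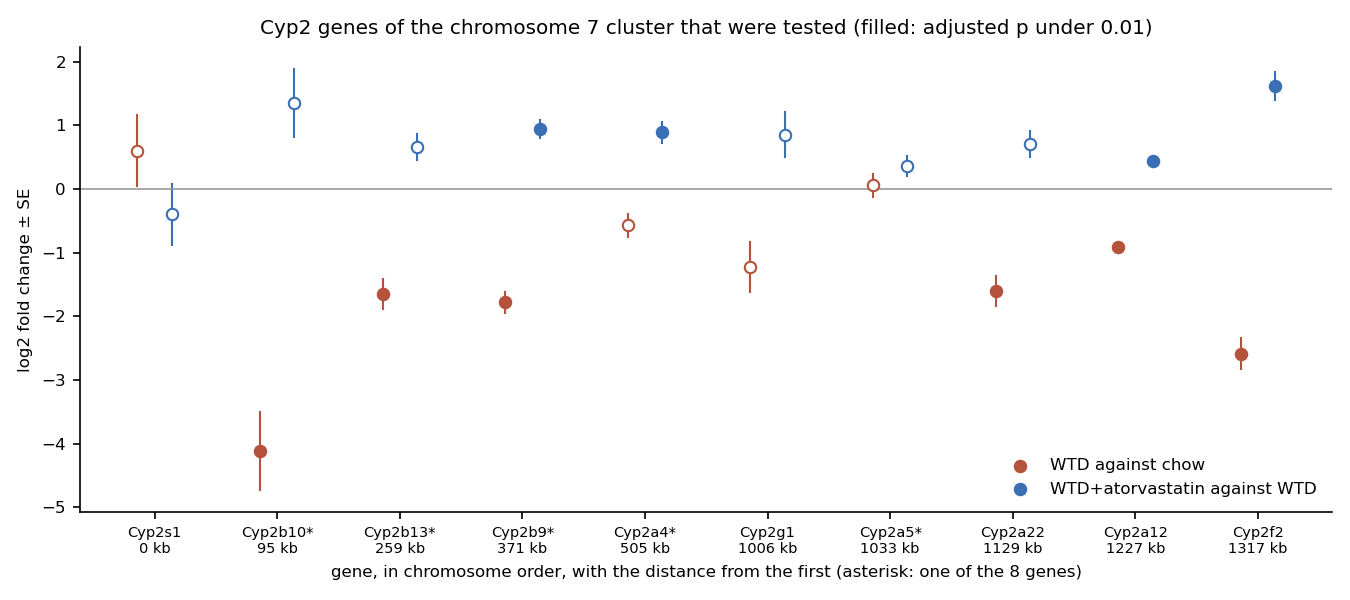
Log2 fold change with its standard error (vertical axis) for the 10 tested Cyp2 genes of the chromosome 7 cluster in chromosome order, with the distance in kb from the start of the first gene; filled points have an adjusted p under 0.01. The WTD effect (red) ran from -4.11 at Cyp2b10 to 0.60 at Cyp2s1, and the atorvastatin effect (blue) from -0.40 at Cyp2s1 to 1.62 at Cyp2f2.

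The 8 genes were then compared among mice of the same group, in 28 pairs and 3 groups, or 84 correlations of log2 CPM with permutation tests adjusted over all of them. At an adjusted p under 0.05, 0 of 28 pairs passed by Pearson r on chow, 12 on WTD and 5 with atorvastatin, and each of the 17 was positive. By Spearman rho 0, 7 and 6 passed. Without the 2 mice farthest from the median of the first gene, 10 of the 12 and 4 of the 5 kept an r of at least 0.5. The levels were not taken relative to the hepatocyte markers here. On chow, with 10 mice, 4 of 28 had an unadjusted p under 0.05. Leaving out the 2 farthest mice took r from 0.73 to 0.59 for Nr1i2 with Por, from 0.72 to 0.24 for Nr1i3 with Nr1i2, from 0.65 to -0.01 for Cyp2b9 with Cyp2a4 and from 0.63 to -0.04 for Cyp2b13 with Cyp2a5. On WTD the closest pair was Cyp2b9 and Cyp2b13 (r = 0.91, rho = 0.78, permutation test, adjusted p = 0.0017 and 0.011, n = 16). Leaving out the 2 mice farthest from the median of Cyp2b9 gave r = 0.68. Nr1i3 correlated with Cyp2b13 (r = 0.89, rho = 0.71, permutation test, adjusted p = 0.0028 and 0.024), with Cyp2b9 (r = 0.84, rho = 0.59, permutation test, adjusted p = 0.0097 and 0.076) and with Por (r = 0.83, rho = 0.71, permutation test, adjusted p = 0.0048 and 0.024). Without the 2 farthest mice, replicate 15 among them, these were 0.73, 0.55 and 0.65. Cyp2b13 with Por passed (r = 0.77) but fell to 0.43 without 2 mice, and Cyp2b9 with Por did not pass (r = 0.62, permutation test, adjusted p = 0.0729) and fell to 0.02. Cyp2a4 and Cyp2a5 had r = 0.88 and rho = 0.85 on WTD (permutation test, adjusted p = 0.00084 and 0.0050) and r = 0.82 without 2 mice.

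In atorvastatin-treated mice Nr1i3 again correlated with Por (r = 0.80, rho = 0.81, permutation test, adjusted p = 0.0048 and 0.011, n = 16), with Cyp2b9 (r = 0.75, rho = 0.71, permutation test, adjusted p = 0.0097 and 0.024) and with Cyp2b13 (r = 0.70, rho = 0.70, permutation test, adjusted p = 0.017 and 0.024). Without the 2 farthest mice these were 0.77, 0.71 and 0.54. Nr1i3 and Cyp2b10, its classical target, had r = 0.30 on WTD and 0.18 with atorvastatin and did not pass the test. On WTD 5 of 16 mice had 0 counts of Cyp2b10 and the median was 13.5 counts. Counting error therefore limits what r can show there. On chow the values of r for Nr1i3 were -0.08 with Cyp2b9, -0.34 with Cyp2b10, -0.38 with Cyp2b13 and 0.39 with Por. Whether the correlations differ between groups was not tested. Without the 9 libraries low in weak genes, WTD replicate 15 among them, 7 of the 84 passed instead of 17. This left 7, 11 and 15 mice on chow, WTD and WTD+atorvastatin, so fewer pairs could pass. The median r over the 28 pairs went from 0.13 to 0.24, from 0.55 to 0.53 and from 0.26 to 0.27.

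**Figure D5:**
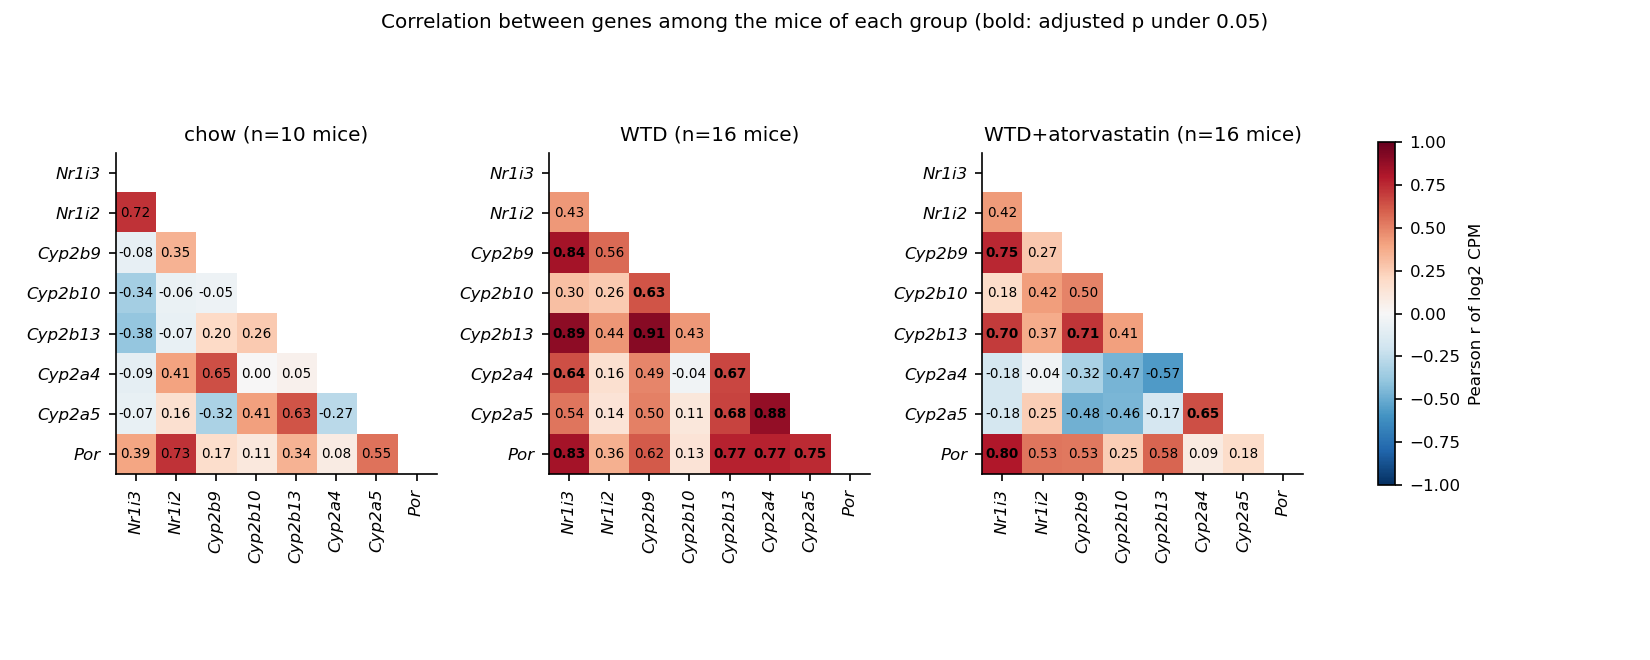
Pearson r of log2 CPM between each pair of the 8 genes among the mice of 1 group (colour from -1 in blue to 1 in red, value printed, bold where the adjusted p was under 0.05). Bold values number 12 on WTD, 5 with atorvastatin and 0 on chow, and the highest is 0.91 for Cyp2b9 with Cyp2b13 on WTD.

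Genes most like each of the 8 were named by their Pearson r over the 42 mice after removal of the group means, among the 10923 genes whose counts averaged 100 or more, as a description with no test. For Nr1i3 these were Cyp2e1 (r = 0.90), Slc27a2 (0.90) and Acot3 (0.87). For Cyp2b9 they were Serpina1b (0.92), Slc27a5 (0.90) and Cyp2d26 (0.90), and for Cyp2b13 Sord (0.85), Rgn (0.84) and Sult2a8 (0.84). Por was closest to Pdk2 (0.87), Pbld1 (0.85) and Slc25a13 (0.83). The other 4 had weaker likeness, Nr1i2 with Plekhg3 (0.69), Kin (0.67) and Hp1bp3 (0.67), Cyp2b10 with Gldc (0.67), Pex5 (0.65) and Ceacam1 (0.64), and Cyp2a4 with Rpf1 (0.60), Glyat (0.59) and Atxn2 (0.58). The genes most like Cyp2a5 were Epb41 (0.74), the clock gene Bhlhe40 (0.70) and Slc5a6 (0.70). All points share library and scaling.

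Other targets of CAR and PXR were read from lists of named genes, each against the 33.5% of genes that passed on WTD and the 7.10% with atorvastatin. Of 15 oxidation targets, 11 were lower and 2 higher on WTD (median log2 fold change -1.02), and 2 were higher with atorvastatin, or 5 without the libraries low in weak genes. Cyp2c54, a P450 of the Cyp2c subfamily, fell by 3.64 on the log2 scale (SE 0.29, adjusted p = 1.6e-13) and the aldo-keto reductase gene Akr1b7 rose by 1.88 (SE 0.35, adjusted p = 1.2e-05). Cyp1a2, a P450 of pericentral hepatocytes, was 0.78 higher with atorvastatin (SE 0.12, adjusted p = 2.0e-05). Among 13 tested conjugation targets, 4 were lower and 4 higher on WTD (median -0.11), from the sulfotransferase Sult5a1 at -5.08 (SE 0.53) to the oestrogen sulfotransferase Sult1e1 at 3.15 (SE 0.55). With atorvastatin 3 of 13 were higher, led by Papss2 (0.71, SE 0.14), which makes the sulfate donor. All 5 transporter targets passed on WTD, 3 lower, with Slco1a4, an uptake transporter, at -1.48 (SE 0.17), and 2 higher, with the export pump Abcc4 at 1.25 (SE 0.31). The export pump Abcc2 was the 1 of 5 that was higher with atorvastatin (0.45, SE 0.08).

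Among 18 partners and coregulators of the receptors, 6 were lower and 3 higher on WTD (median -0.17). They included the CAR coactivator Gadd45b at 1.12 (SE 0.22) and Egfr, a growth factor receptor whose signalling holds CAR inactive, at -0.80 (SE 0.18). With atorvastatin 1 of 18 was higher, Hnf4a (0.33, SE 0.07), and 1 lower, Gadd45b (-0.72, SE 0.18). Among 14 genes of electron supply and haem, 9 were lower and 1 higher on WTD (median -0.52), and 6 were higher with atorvastatin. Pgrmc1, a haem-binding partner of P450 enzymes, was at -0.85 on WTD (SE 0.06), haem oxygenase Hmox1 at 1.56 (SE 0.17), and Cpox of haem synthesis at 0.52 with atorvastatin (SE 0.12). Of 10 NRF2 targets, a response to oxidative stress that also covers some P450 inducers, 5 were higher and 2 lower on WTD (median 0.54), with Slc7a11 at 2.80 (SE 0.68) and Osgin1 at -0.55 (SE 0.15). None of the 10 passed with atorvastatin against WTD by edgeR, DESeq2 or limma-voom, and 0 had an unadjusted p under 0.05.

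Lists of genes with a sex bias, of clock genes and of genes of a liver zone were described in the same way. Of 15 female-biased liver genes, 13 were lower and 1 higher on WTD (median -3.18), and 11 of 15 were higher with atorvastatin (median 1.77), from Sult3a1 at -7.19 on WTD (SE 0.74) to Cyp3a41b at 4.88 with the drug (SE 0.75). Of 7 tested male-biased genes, 3 were lower and 1 higher on WTD (median -0.54), with Slco1a1 at -5.47 (SE 0.80) and Mup20 at 2.55 (SE 0.43), and Mup20 was lower with atorvastatin (-1.65, SE 0.35). Of 13 tested clock genes, 2 were higher and 2 lower on WTD. With atorvastatin none passed by edgeR or DESeq2, 3 were higher by limma-voom, and 3 had an unadjusted p under 0.05, all higher. Among 9 tested pericentral genes, 7 were lower on WTD and 2 higher with atorvastatin, and among 10 periportal genes 8 were lower and 1 higher on WTD and 7 higher with atorvastatin. The pericentral count with the drug depended on the setting. By limma-voom 7 of 9 pericentral genes were higher, beside 7 of 10 periportal genes higher and 1 lower. At an unadjusted p under 0.05, 6 pericentral genes were higher, beside 9 periportal genes higher and 1 lower. By DESeq2 the numbers higher were 2 and 7. A difference between the zones was not tested.

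Markers of other cell types were read in the same way. All 4 lipid-associated macrophage markers were higher on WTD (median 3.15), with summed levels of 90.1 to 165 CPM on chow, 395 to 1428 CPM on WTD and 371 to 1080 CPM with atorvastatin, and 3 of 4 were lower with the drug. On WTD, 4 of 7 macrophage and Kupffer cell markers, 4 of 7 stellate cell and fibroblast markers, 4 of 4 cholangiocyte markers and 2 of 2 tested neutrophil markers were higher, and none of these lists had a lower one. The neutrophil markers were low, with median sums of 2.49 CPM on chow and 7.83 CPM on WTD. Of them, 1 of 2 passed with limma-voom, 1 of 2 without the libraries low in weak genes and 3 of 3 with DESeq2. Of 5 sinusoidal endothelium markers, 1 was higher and 2 lower, and none of 4 T cell or 3 B cell markers passed by edgeR, DESeq2 or limma-voom, with 0 and 1 at an unadjusted p under 0.05. With atorvastatin against WTD, the macrophage and Kupffer list had 1 higher and 1 lower, the stellate list 1 higher and 2 lower and the endothelium list 2 higher, and no marker of cholangiocytes, neutrophils, T cells or B cells passed by edgeR or DESeq2. All 4 cholangiocyte markers were lower with the drug by limma-voom and at an unadjusted p under 0.05, as was 1 of 2 neutrophil markers at that unadjusted p. Their part in the levels of the 8 genes was not tested.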

How the data were processed

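Liver RNA of 42 female mice was sequenced as read pairs, and the authors used STAR for alignment (genome GRCm38) and HTSeq 0.6.1p1 for counting against GENCODE genes. The deposited values are counts, whole numbers without normalization or filtering, and the table of all mice was identical to the 42 single tables. Symbols and positions came from GENCODE vM21, in which 54409 of 54446 identifiers were found. Summary lines of HTSeq were left out (on average 2.28% of all read pairs in no gene, 5.95% ambiguous and 4.68% not uniquely aligned). All 42 mice entered 1 model with 3 groups in edgeR 4.0.16 (R 4.3.3), with filterByExpr (minimum count 10, minimum total 15), TMM scaling and robust quasi-likelihood tests. P-values were adjusted by Benjamini-Hochberg over the 15574 tested genes and called under 0.01, the threshold of the study's methods. CPM used TMM library sizes, and log2 CPM a prior count of 2. Ratios and correlations were tested by 100000 permutations. The 8 genes and the 12 pathway and 9 cell type lists were chosen with earlier results of these data known. Named were the 8 genes, the called gene with the largest rise and fall of each pathway list, and the 3 genes most like each of the 8; Cyp2g1, Cyp2a22 and Cyp2s1 were named after their values were seen, and Tomm40l, Gm45225 and the clock score genes for the checks they serve. Each library is 1 mouse. Alternatives were DESeq2 1.42.0, limma-voom (limma 3.58.1), other scalings and filters, a clock covariate, and leaving out single mice or the 9 libraries low in weak genes. Upstream sequences are RefSeq's (GRCm38.p6, all 8 genes found), transcripts GENCODE's, aligned with biopython 1.88. The edgeR fit was tested on simulated counts with known changes. Intervals and limits on 0 counts cover counting error only.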

Additional observations from a re-analysis of the deposited data

How the results depend on the processing

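The count of genes that passed on WTD against chow was 5 to 7 over the 11 alternative fits and 5 to 7 when each mouse was left out in turn. For atorvastatin against chow it was 4 to 6 and 5 to 5. Atorvastatin against WTD depended most on the setting, with 2 genes in 8 fits, 4 at an adjusted p under 0.05, 6 with limma-voom, 6 without the libraries low in weak genes, and 2 to 4 with 1 mouse left out. Cyp2b10 was not tested where 10 counts were required in every mouse. A few values close to 0 changed sign. Cyp2a5 on WTD was -0.25 with the clock score and -0.014 to 0.14 with 1 mouse left out, and Cyp2a4 with atorvastatin against chow was -0.10 with the clock score. The Cyp2b13 to Cyp2b9 difference on WTD was -0.0012 without the libraries low in weak genes. The ratios that passed under 0.05 in an alternative, for atorvastatin against WTD, were Cyp2b10 to Cyp2b9 at 1.83 with a prior count of 0.5 and Nr1i2 to Nr1i3 at -0.47 without the libraries low in weak genes. Without these libraries, and so with fewer mice, 7 correlations passed. Relative to the hepatocyte markers, an alternative added after the data were seen, the sign turned for Nr1i2 (0.45 for WTD against chow, -0.18 for atorvastatin against WTD, 0.28 for atorvastatin against chow), for Por (0.32, -0.013 and 0.30) and for Cyp2a4 on WTD (0.22). The cause was not tested in these cases. No paired analysis was possible because the groups hold different animals and the replicate numbers are only names. Depth limits Cyp2b10 on WTD, where the median was 13.5 counts.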
